A study of Komagataella pastoris with 6 samples.

Results

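The genes described here build the cell wall of *Komagataella pastoris* (*Pichia pastoris*), a yeast that can grow on methanol, or make and carry glycosylphosphatidylinositol (GPI) anchors. They are the 46 of 5030 genes in the deposited expression table whose product description names a cell wall, a glucan, chitin or a GPI anchor. A further 6 matching genes, all described as aspartic or aspartyl proteases, were left out by the same rule. The rule reads the descriptions and no expression value, but it was written with earlier results of these data known. Messenger RNA was sequenced from 6 cultures, 3 of the control strain HTX-33, labelled wild type, and 3 of HTX33_ILV3, a derivative that overexpresses Ilv3 (the ILV3 strain). All 6 were under methanol induction in a basic salt medium with 0.5% methanol and were harvested in exponential phase. The promoter and copy number of the introduced ILV3, whether the strain is a single clone, and any earlier changes in HTX-33 were not given in the sources used here. Replicates are biological, by the series' own account. ILV3 (PAS_chr1-4_0458), the targeted gene, lay between 79.8 and 91.9 TPM in the control libraries and between 2564 and 2680 TPM in the ILV3 libraries, so the labels hold in every library.

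The yeast wall is a load-bearing net of beta-1,3-glucan to which branched beta-1,6-glucan, chitin and mannoproteins are joined. Beta-1,3-glucan and chitin are spun out at the plasma membrane by membrane-bound synthases from UDP-glucose and UDP-N-acetylglucosamine, and the chains are then cut, lengthened and cross-linked outside the cell by glucanases and transglycosidases. Many wall proteins arrive with a GPI anchor, a glycolipid built on the membrane of the endoplasmic reticulum and joined to the protein by a transamidase. In yeasts, many of these proteins are later released from the lipid and linked to beta-1,6-glucan.

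Levels are given as TPM, a transcript's share of 1000000 after scaling by length. The deposited values are named FPKM but sum to 1000000 in each library, and the depth of sequencing is unknown. A change is given as the log2 ratio of the ILV3 strain to the control after 1 was added to each TPM value (the log2 fold change), so changes of low genes come out too small. A gene is said to have risen or fallen when its p from limma, a linear model fitted to all genes at once, was under 0.05 after Benjamini-Hochberg adjustment over all 5025 tested genes. Errors of means are SD over n = 3 libraries. Each value is an average over a culture, so fewer cells with a transcript and less of it in each cell cannot be told apart.

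Most of the genes that make and remodel wall polymers fell in the ILV3 strain, and 6 of 7 genes of GPI anchor synthesis and transfer did not pass the test. Those 7 genes all had means of at most 45.3 TPM, and a smaller share of low genes than of abundant ones was called among all tested genes. All 46 genes passed the filter on low values. Of these, 24 fell, or 52.2%, against 27.2% of all tested genes. Another 5 rose, or 10.9%, against 22.1% of all tested genes, and 17 did not pass. Of the 46 genes, 29 changed either way, beside 2478 of the 5025 tested genes, or 49.3%. With the replicate number as a block, 22 fell and 3 rose, beside 24.4% and 19.6% of all tested genes. The falls were moderate: the mean TPM of the 24 genes was lower by 11.9% to 60.4%, with a median of 32.2%. A fall of at least 0.5 on the log2 scale was called in 14 of the 46 genes, and in 8.66% of all tested genes. No member rose by that much, against 5.41% of all tested genes. The median log2 fold change was -0.22 over the 46 genes and -0.02 over all tested genes. The libraries of the strains did not overlap in 30 of the 46 genes, and in 2876 of the 5025 tested genes, or 57.2%. The genes summed to 7131, 6528 and 7127 TPM in the control libraries and to 5003, 5177 and 4971 TPM in the ILV3 libraries. Every ILV3 sum was thus below every control sum. In the authors' deposited table, all 46 genes have the same sign of change as here. That table rests on the same 6 libraries and is not an independent check.

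**Figure D1:**
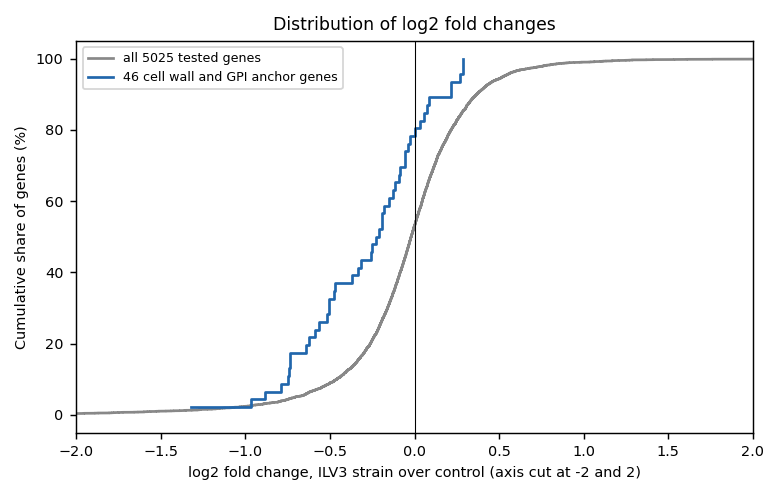
Cumulative share of genes (vertical axis, %) by log2 fold change of the ILV3 strain over the control (horizontal axis, shown from -2 to 2), for all 5025 tested genes (grey) and for the 46 cell wall and GPI anchor genes (blue). The blue curve lies to the left over most of its range, with a median of -0.22 against -0.02, and ends at 0.29.

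The calls gathered among the more abundant members. Of the 23 members above the set's median level of 48.1 TPM, 18 fell and 2 rose, 78.3% and 8.70%. Among all tested genes above that level, 34.0% fell and 26.9% rose. Of the 23 members at or below it, 6 fell and 3 rose, 26.1% and 13.0%, against 20.2% and 17.3% of all tested genes there. The median log2 fold change of the members was -0.51 above that level and -0.09 below it. Of the 10 most abundant members, 8 fell, 1 rose and 1 did not pass.

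Transcripts of each catalytic gene of beta-1,3-glucan synthesis were lower. Of 5 genes with a part in this synthesis, 4 fell and 1 did not pass. The share that fell was 80.0%, against 27.2% of all tested genes. There are 3 genes described as the catalytic subunit of 1,3-beta-D-glucan synthase, the membrane enzyme that polymerises glucose from UDP-glucose, and all 3 fell. PAS_chr2-1_0661 stood at 444, 388 and 447 TPM in the control and at 269, 287 and 261.3 TPM in the ILV3 strain. The strains did not overlap for this gene, the main source of synthase transcripts, with a log2 fold change of -0.64 (SE 0.06, adjusted p = 4.25e-05). PAS_chr2-1_0263 stood at 66.8, 60.4 and 66.9 TPM in the control and at 50.2, 49.9 and 49.0 TPM in the ILV3 strain (log2 fold change -0.37, SE 0.06, adjusted p = 0.000509). PAS_chr1-3_0225 stood at 14.5, 12.7 and 14.6 TPM against 11.5, 10.8 and 10.6 TPM (a log2 fold change of -0.32, with adjusted p = 0.0135). This smallest of the 3 changes lost its call without control replicate 1 (adjusted p = 0.0559) or without control replicate 3 (0.0512), and its adjusted p ran from 0.00150 to 0.0559 over all settings. The gene described as the cell wall assembly regulator SMI1 (PAS_chr1-4_0476), a protein that in *Saccharomyces cerevisiae* is tied to the control of glucan synthesis, fell from 53.3 ± 3.71 to 41.96 ± 0.859 TPM. PAS_chr3_0560, described as a positive regulator of both glucan synthesis and the Pkc1p kinase cascade, lay at 24.4 ± 2.05 and 21.2 ± 1.93 TPM (adjusted p = 0.102). It was called lower without control replicate 2 (0.0337, range 0.0337 to 0.318) and under quantile normalization (0.0497).

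The enzymes that cut and rejoin beta-1,3-glucan included the deepest fall of the 46 genes. Of 6 genes, 5 fell and 1 did not pass, or 83.3% lower against 27.2% of all tested genes. Their summed level went from 2279 ± 118 to 1333 ± 48.5 TPM. The major exo-1,3-beta-glucanase of the wall (PAS_chr2-1_0454), which trims glucan chains from their ends, stood at 171, 155 and 171 TPM in the control and at 64.6, 67.6 and 64.8 TPM in the ILV3 strain. No control library came near the ILV3 range, and the log2 fold change of -1.32 (SE 0.05, adjusted p = 1.46e-07) was the lowest of the 46 genes. The endo-beta-1,3-glucanase described as a major wall protein (PAS_chr1-4_0426), which cuts within chains, was the most abundant of the 46. It stood at 1601, 1485 and 1577 TPM in the control and at 883, 962 and 944 TPM in the ILV3 strain. The ranges were far apart (log2 fold change -0.74, SE 0.05, adjusted p = 3.39e-06).

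Glucanosyltransferases cut a beta-1,3-glucan chain and join the piece to another, which lengthens and branches the net. There are 4 such genes, and 3 fell. PAS_chr1-3_0227 stood at 330, 287 and 327 TPM in the control and at 181, 195 and 183.96 TPM in the ILV3 strain (log2 fold change -0.75, SE 0.06, adjusted p = 1.33e-05). PAS_chr1-3_0226 stood at 162, 133 and 166 TPM in the control and at 84.1, 84.8 and 78.8 TPM in the ILV3 strain (log2 fold change -0.88, SE 0.08, adjusted p = 3.18e-05). For both genes every ILV3 library was below every control library. Their locus tags follow directly on that of the synthase gene PAS_chr1-3_0225, so these 3 genes with a role in glucan carry consecutive tags. PAS_chr3_0306 fell from 76.1 ± 4.41 to 54.3 ± 1.10 TPM. PAS_chr3_0184, the least abundant of the 4, lay at 14.8 ± 1.82 and 13.8 ± 0.345 TPM (adjusted p = 0.484). How the authors shared reads among similar genes of these families was not given in the sources used here.

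**Figure D2:**
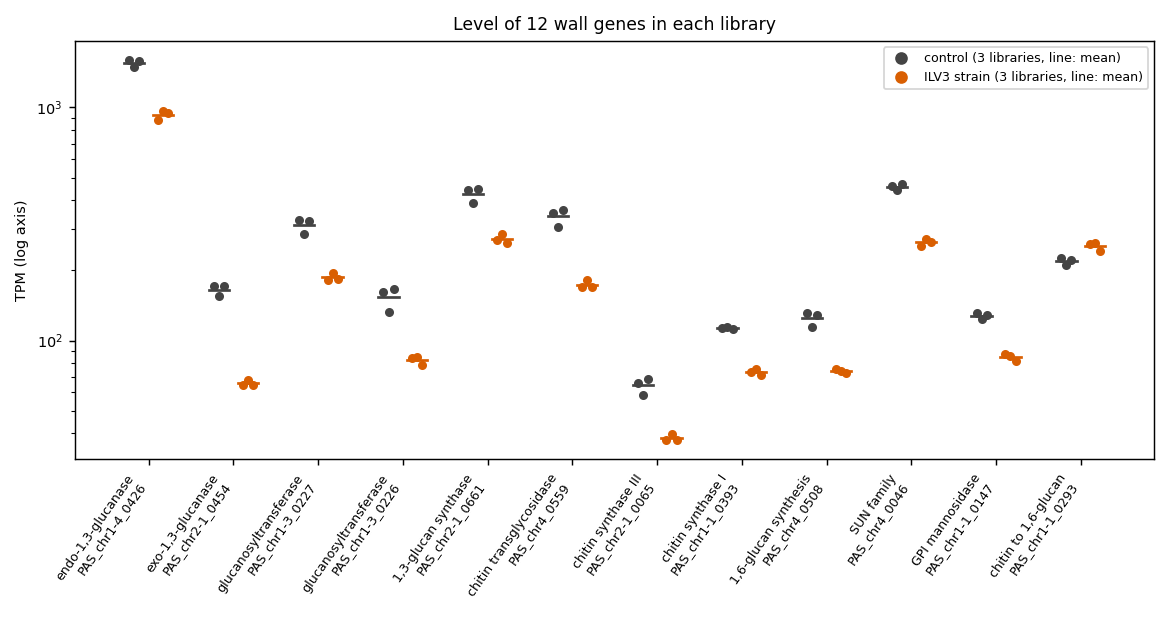
TPM (log axis) of 12 wall genes in each of the 3 control libraries (grey) and 3 ILV3 libraries (orange), with a line at each mean. All 12 are genes that fell or rose without overlap, so they do not stand for the 46, of which 24 fell, 5 rose and 17 did not pass. In 11 of the 12 the ILV3 points lie below all control points, and in PAS_chr1-1_0293 they lie above them.

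Genes for beta-1,6-glucan and for the assembly of beta-glucan split. Of 6, 3 fell, 1 rose and 2 did not pass. Beta-1,6-glucan is the short branched polymer that ties wall proteins to the glucan net, and 3 genes are described as required for its synthesis. PAS_chr4_0508, the most abundant of these 3, stood at 131, 113.96 and 128 TPM in the control and at 75.9, 73.9 and 72.5 TPM in the ILV3 strain. It fell with no overlap (log2 fold change -0.74, SE 0.06, adjusted p = 1.23e-05). PAS_chr3_0929 moved the other way, from 9.87, 8.67 and 9.82 TPM to 11.4, 12.6 and 11.2 TPM (log2 fold change 0.29, SE 0.09, adjusted p = 0.0290). Its libraries did not overlap either, but the call was lost with the replicate block (adjusted p = 0.0743). It was also lost without control replicate 2 (0.0528), ILV3 replicate 1 (0.0619) or ILV3 replicate 2 (0.116), within a range of 0.00627 to 0.116 over all settings. PAS_chr1-3_0114 lay at 16.5 ± 1.89 and 16.8 ± 0.865 TPM (adjusted p = 0.812). A glycoprotein of beta-glucan assembly (PAS_chr3_0960) fell from 72.6, 62.4 and 69.8 TPM to 47.7, 50.4 and 45.0 TPM (a log2 fold change of -0.51, with adjusted p = 0.000315). A membrane protein of the endoplasmic reticulum, PAS_chr3_0120, whose cut-off description says that it keeps a wall component at its normal content, fell from 24.6 ± 1.82 to 17.4 ± 0.727 TPM. The catalytic subunit of glucosidase II (PAS_chr2-1_0778), which trims glucose from N-linked glycans, lay at 54.7 ± 4.19 and 50.3 ± 0.286 TPM (adjusted p = 0.151). It was called lower without control replicate 2 (0.0118, range 0.0118 to 0.509).

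Transcripts of all 3 synthases of chitin, a polymer of N-acetylglucosamine that is richest at bud necks and division septa in yeasts, fell. Chitin synthase I (PAS_chr1-1_0393) stood at 113, 115 and 113 TPM in the control and at 73.2, 75.6 and 71.4 TPM in the ILV3 strain (log2 fold change -0.62, SE 0.04, adjusted p = 5.16e-06). Chitin synthase III (PAS_chr2-1_0065), which in *S. cerevisiae* makes most of the wall's chitin, stood at 65.7, 58.6 and 68.7 TPM in the control and at 37.4, 39.7 and 37.4 TPM in the ILV3 strain (log2 fold change -0.73, SE 0.07, adjusted p = 2.57e-05). Both sets of libraries were well separated. Chitin synthase II (PAS_chr2-2_0094), the enzyme of the primary septum in *S. cerevisiae*, fell less, from 55.9, 47.5 and 54.0 TPM to 44.2, 45.9 and 43.8 TPM. Control replicate 2 lay close to the ILV3 range here. The call (log2 fold change -0.23, SE 0.07, adjusted p = 0.0206) was lost without control replicate 1 (0.0797), control replicate 3 (0.0687), ILV3 replicate 1 (0.0596) or ILV3 replicate 3 (0.0630), within a range of 0.00176 to 0.0797. The activator of chitin synthase III (PAS_chr2-1_0261), which recruits the enzyme to the bud neck, lay at 21.2 ± 1.53 and 19.8 ± 1.70 TPM (adjusted p = 0.391).

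A putative chitin transglycosidase and a wall protein described for the transfer of chitin moved in opposite directions. The putative chitin transglycosidase PAS_chr4_0559 stood at 353, 307 and 365 TPM in the control and at 169, 182 and 170.0 TPM in the ILV3 strain, about 0.509 of the control mean. It had the second deepest fall of the 46 genes, with no overlap (log2 fold change -0.97, SE 0.07, adjusted p = 4.81e-06). PAS_chr1-1_0293, described as acting in the transfer of chitin to beta-1,6-glucan, stood at 225.5, 211 and 221 TPM in the control and at 259, 262.6 and 242.1 TPM in the ILV3 strain. It rose in every library relative to every control library (log2 fold change 0.21, SE 0.05, adjusted p = 0.00518).

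**Figure D3:**
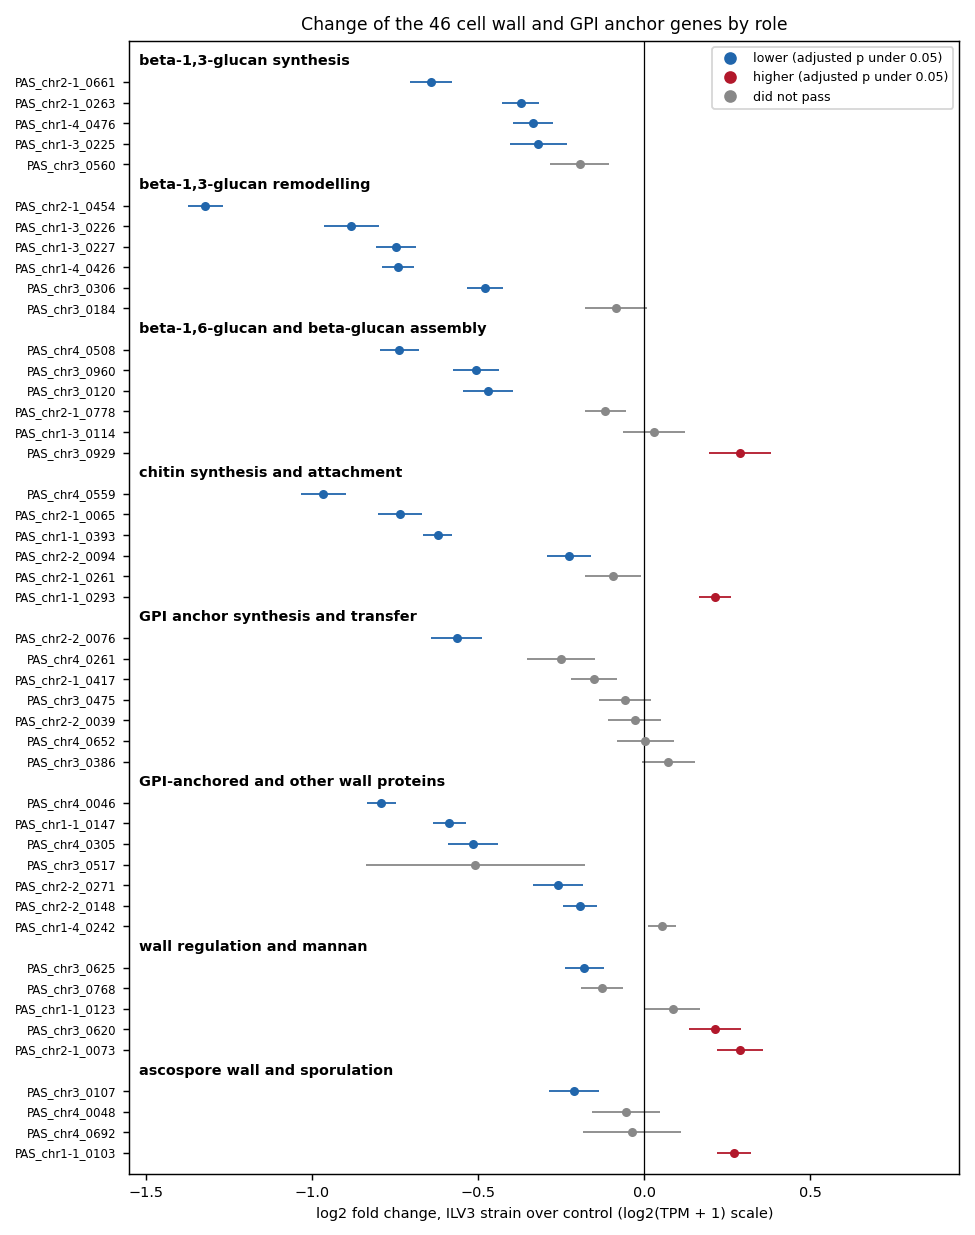
Log2 fold change between strains, ILV3 over control (horizontal axis, after adding 1 to each TPM) with its SE for each of the 46 genes, grouped by role. Blue genes fell, red genes rose and grey genes did not pass the test. The GPI anchor synthesis group holds 1 blue gene of 7, and the beta-1,3-glucan remodelling group 5 of 6.

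Genes of GPI anchor synthesis and transfer mostly did not pass the test. Of 7 genes, 1 fell, none rose and 6 did not pass, while 27.2% of all tested genes fell and 49.3% changed either way. All 7 were low, with means of 15.9 to 45.3 TPM. Among all tested genes at or below 48.1 TPM, 20.2% fell and 17.3% rose. The 14.3% of the anchor genes that fell is near that first share. The summed level of the 7 genes was 196 ± 13.4 TPM in control libraries and 182 ± 8.66 TPM in ILV3 libraries. The gene that fell, PAS_chr2-2_0076, is described only as involved in anchor synthesis. It stood at 22.8, 20.3 and 23.0 TPM in the control and at 14.6, 15.3 and 13.8 TPM in the ILV3 strain, with no overlap (log2 fold change -0.56, SE 0.08, adjusted p = 0.000321). The alpha-1,4-mannosyltransferase that adds the first mannose of the anchor (PAS_chr3_0386) stood at 48.4, 40.1 and 44.0 TPM in the control and at 49.2, 47.5 and 42.7 TPM in the ILV3 strain. The strains overlapped (log2 fold change 0.07, SE 0.08, adjusted p = 0.483). PAS_chr4_0652, acting late in anchor assembly, lay at 29.7 ± 2.89 and 29.8 ± 2.40 TPM (adjusted p = 0.976), and PAS_chr2-2_0039 at 16.9 ± 0.954 and 16.6 ± 1.21 TPM (adjusted p = 0.794).

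The transamidase complex cuts the signal at a protein's end and joins the anchor there, and 3 of its subunits are among the 46. PAS_chr2-1_0417 stood at 33.9, 30.1 and 35.5 TPM in the control and at 29.4, 30.3 and 29.4 TPM in the ILV3 strain (log2 fold change -0.15, SE 0.07, adjusted p = 0.103). Control replicate 2 fell among the ILV3 values, and without that library the gene was called lower (log2 fold change -0.22, adjusted p = 0.0101, range 0.0101 to 0.318). PAS_chr3_0475 stood at 34.3, 28.6 and 34.2 TPM in the control and at 30.4, 32.2 and 30.3 TPM in the ILV3 strain (log2 fold change -0.06, SE 0.08, adjusted p = 0.572). PAS_chr4_0261 stood at 16.0, 18.4 and 17.6 TPM against 15.2, 15.8 and 12.4 TPM, without overlap. Its log2 fold change of -0.25 (SE 0.10, adjusted p = 0.0707) was called with robust empirical Bayes (adjusted p = 0.0494, range 0.0494 to 0.226).

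The description pattern misses genes that write GPI in another way. A search made after the values were seen found 5 more genes of anchor synthesis, remodelling or transfer. Of these 5, 1 rose and 4 did not pass, with log2 fold changes from -0.003 to 0.25. The gene that rose encodes an alpha-1,2-mannosyltransferase of the anchor (PAS_chr3_0882) and went from 28.2 ± 0.316 to 33.7 ± 1.15 TPM. The catalytic subunit of the first step of GPI synthesis (PAS_chr2-1_0303) lay at 14.2 ± 1.63 and 16.4 ± 1.36 TPM (adjusted p = 0.142). A further transamidase subunit (PAS_chr2-2_0427) lay at 20.9 ± 2.31 and 22.9 ± 1.70 TPM (adjusted p = 0.277). Over all 12 anchor genes, 1 fell and 1 rose. Whether the change of the anchor genes differed from that of the glucan and chitin genes was not tested.

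Among GPI-anchored and other wall proteins, 5 of 7 fell and 2 did not pass. The share that fell was 71.4%, against 27.2% of all tested genes. A member of the SUN family (PAS_chr4_0046) is described as localized to both the mitochondrial outer membrane and the cell wall. In yeasts, proteins of this family act in daughter cell separation. PAS_chr4_0046 stood at 463, 442 and 468 TPM in the control and at 255, 272 and 265 TPM in the ILV3 strain. The ranges were far apart (log2 fold change -0.79, SE 0.04, adjusted p = 1.11e-06). A pair of putative GPI-anchored mannosidases, of a kind thought in *S. cerevisiae* to help attach GPI proteins to the wall, diverged. PAS_chr1-1_0147, described as essential, stood at 132, 123.4 and 129 TPM in the control and at 87.7, 85.8 and 81.5 TPM in the ILV3 strain (log2 fold change -0.59, SE 0.05, adjusted p = 1.49e-05). PAS_chr1-4_0242 stood at 204.5, 192 and 197 TPM in the control and at 206, 208 and 202 TPM in the ILV3 strain. Its libraries overlapped (log2 fold change 0.06, SE 0.04, adjusted p = 0.304), but it was called higher with quantile normalization (log2 fold change 0.14, adjusted p = 0.0111, range 0.0111 to 0.490).

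The abundant wall protein with a putative GPI-attachment site (PAS_chr2-2_0148) fell slightly, from 1219, 1087 and 1201 TPM to 998, 1036 and 1030.0 TPM (a log2 fold change of -0.19, SE 0.05, adjusted p = 0.0118). The O-glycosylated protein required for wall stability (PAS_chr4_0305) fell from 46.4, 41.5 and 49.3 TPM to 32.4, 29.5 and 33.01 TPM (a log2 fold change of -0.52, with adjusted p = 0.000488). A GPI-anchored wall protein of unknown function (PAS_chr2-2_0271) fell from 154 ± 15.1 to 128 ± 7.68 TPM (adjusted p = 0.0176). That call was lost under quantile normalization (0.158), under median-ratio scaling (0.0587) and without ILV3 replicate 3 (0.0641), within a range of 0.00579 to 0.158. A putative GPI-anchored protein (PAS_chr3_0517) had the largest SE of the 46 genes on the log2 scale, with 28.9, 58.8 and 35.6 TPM in the control and 44.6, 26.4 and 17.2 TPM in the ILV3 strain. The strains overlapped (log2 fold change -0.51, SE 0.33, adjusted p = 0.238), and without ILV3 replicate 1 the gene was called lower (log2 fold change -0.85, adjusted p = 0.0385, range 0.0385 to 0.644).

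Changes of genes for wall regulation and mannan synthesis were small. Of 5 genes, 2 rose, 1 fell and 2 did not pass. That is 40.0% higher and 20.0% lower, against 22.1% and 27.2% of all tested genes. A component of the RIM101 pathway, which senses alkaline pH (PAS_chr2-1_0073), stood at 23.8, 23.6 and 26.1 TPM in the control and at 28.5, 31.7 and 30.1 TPM in the ILV3 strain (a log2 fold change of 0.29, SE 0.07, adjusted p = 0.00666). The transcriptional repressor of pH response and wall construction (PAS_chr3_0625), the most abundant of the 5, stood at 299, 268 and 304 TPM against 253, 268 and 247 TPM. Its weak fall (log2 fold change -0.18, SE 0.06, adjusted p = 0.0286) was lost with the replicate block (0.0513), under quantile normalization (0.188) and when no mean-variance trend was fitted (0.0527). Without any 1 library other than control replicate 2 or ILV3 replicate 2 it was lost as well (0.0759 to 0.103), and over all settings the range was 0.00444 to 0.188. An alpha-1,6-mannosyltransferase of wall mannan (PAS_chr3_0620) rose from 16.3 ± 0.524 to 19.1 ± 1.59 TPM (adjusted p = 0.0495). That call at the threshold was lost with the replicate block (0.0896), with the filter at 10 TPM (0.0531) and without any 1 library other than ILV3 replicate 2 (0.0747 to 0.162), within a range of 0.0234 to 0.162. The putative sensor or transporter PAS_chr1-1_0123 lay at 32.2 ± 3.59 and 34.1 ± 1.35 TPM (adjusted p = 0.424). PAS_chr3_0768, a regulator of wall synthesis, lay at 64.5 ± 5.26 and 58.9 ± 0.988 TPM (adjusted p = 0.128). It was called lower without control replicate 2 (0.0182, range 0.0182 to 0.410).

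Genes described for sporulation or the ascospore wall were mostly low in these growing cultures, with 3 of 4 below the median level of all tested genes, 48.8 TPM. Of the 4, 1 rose, 1 fell and 2 did not pass. Both shares were near those of all tested genes, of which 22.1% rose and 27.2% fell. A chitin deacetylase, an enzyme that turns chitin into the chitosan of the ascospore wall (PAS_chr1-1_0103), was the most abundant of them and stood at 94.6, 86.8 and 89.9 TPM in the control. In the ILV3 strain it stood at 112, 111 and 105 TPM, above every control library (log2 fold change 0.27, SE 0.05, adjusted p = 0.00203). A chitinase described as specific to sporulation (PAS_chr3_0107) stood at 31.6, 28.3 and 33.7 TPM against 28.1, 26.8 and 25.5 TPM. Its fall (log2 fold change -0.21, SE 0.07, adjusted p = 0.0439) was lost with the replicate block (0.0749) and without any 1 library other than control replicate 2 (0.0555 to 0.154). Over all settings the range was 0.00853 to 0.154. The glucanases of sporulation, PAS_chr4_0048 and PAS_chr4_0692, had means of 12.1 to 12.6 TPM and 4.56 to 4.66 TPM in the strains.

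The share of each gene within its enzyme family is given as a description. The transcripts of the 3 glucan synthase genes summed to 505 ± 38.2 TPM in control libraries and 333 ± 13.6 TPM in ILV3 libraries. PAS_chr2-1_0661 held 84.4% ± 0.234 of that sum in the control and 81.8% ± 0.667 in the ILV3 strain, with no overlap between libraries. PAS_chr2-1_0263 held 12.8% ± 0.237 and 14.9% ± 0.514. The 3 chitin synthases summed to 230.2 ± 8.10 TPM and 156 ± 4.45 TPM. Chitin synthase II (PAS_chr2-2_0094) held 22.8% ± 1.18 of that sum in the control and 28.6% ± 0.122 in the ILV3 strain, and chitin synthase III (PAS_chr2-1_0065) 27.9% ± 1.33 and 24.4% ± 0.239. Neither share overlapped between the strains, and the order of these 2 synthases by level was reversed, with III above II in every control library and below it in every ILV3 library. The 4 glucanosyltransferases summed to 559.1 ± 47.9 TPM and 337 ± 9.80 TPM, of which PAS_chr3_0306 held 13.6% ± 0.399 and 16.1% ± 0.420. The share of the main gene of that family, PAS_chr1-3_0227, overlapped between the strains, at 56.3% ± 0.682 and 55.3% ± 0.914. No call is made from these shares, since 3 libraries against 3 allow no exact two-sided permutation p under 0.1.

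**Figure D4:**
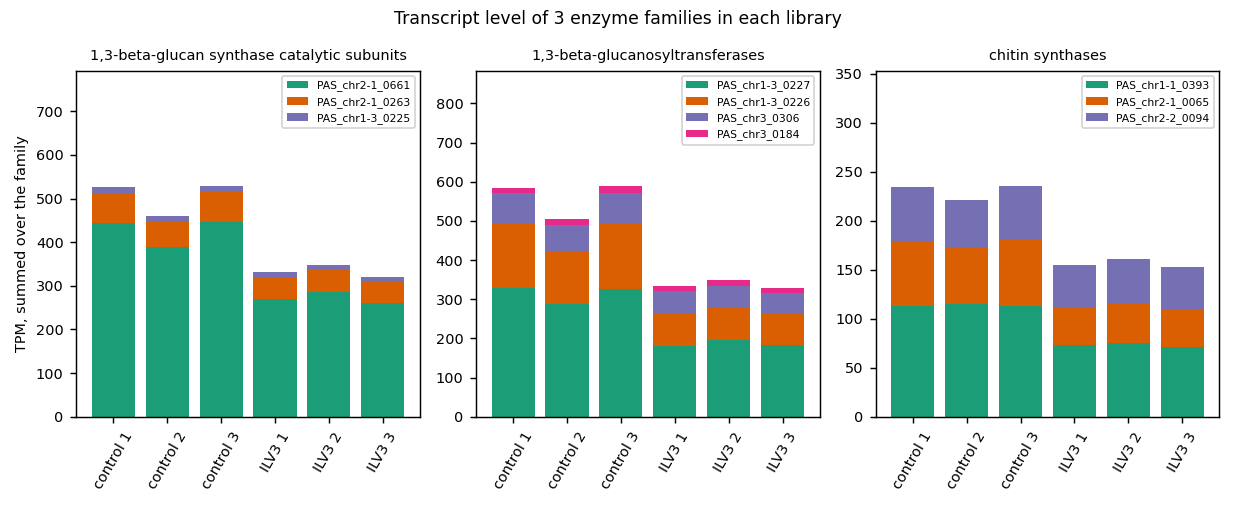
TPM of each gene, stacked within 3 enzyme families, in each of the 6 libraries. All 3 family totals are lower in every ILV3 library than in every control library, and the genes keep their order within the glucan synthases and the glucanosyltransferases.

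The enzymes that supply the sugar nucleotides for these polymers also changed in part. Of 11 such genes outside the 46, 6 fell, 2 rose and 3 did not pass. These are 54.5% and 18.2%, against 27.2% and 22.1% of all tested genes. Glutamine-fructose-6-phosphate amidotransferase (PAS_chr2-1_0626), the entry step to UDP-N-acetylglucosamine and so to chitin, stood at 145, 127 and 144 TPM in the control and at 93.8, 96.7 and 95.4 TPM in the ILV3 strain (a log2 fold change of -0.53, SE 0.06, adjusted p = 7.45e-05). The next enzyme of that route, glucosamine-6-phosphate acetyltransferase (PAS_chr4_0060), rose from 136 ± 11.99 to 176 ± 1.76 TPM (a log2 fold change of 0.37, with adjusted p = 0.00106). The last, UDP-N-acetylglucosamine pyrophosphorylase (PAS_chr3_0676), lay at 56.5 ± 3.82 and 52.2 ± 0.457 TPM (adjusted p = 0.153). Steps of a single route thus moved in different directions.

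For glucan, UDP-glucose pyrophosphorylase (PAS_chr1-3_0122), which makes UDP-glucose, fell from 589 ± 7.05 to 495 ± 6.60 TPM (a log2 fold change of -0.25, with adjusted p = 0.000471). A phosphoglucomutase (PAS_chr1-4_0264), which makes the glucose-1-phosphate that enzyme uses, fell from 614 ± 2.93 to 485 ± 8.26 TPM (a log2 fold change of -0.34, with adjusted p = 7.07e-05). A less abundant phosphoglucomutase (PAS_chr2-1_0771) lay at 68.7 ± 1.33 and 75.9 ± 4.43 TPM, without overlap (log2 fold change 0.14, adjusted p = 0.0592). For mannan, a pair of genes described as GDP-mannose pyrophosphorylase moved apart. PAS_chr3_0870 fell from 303 ± 9.91 to 209 ± 0.740 TPM, and PAS_chr2-1_0093 rose from 198 ± 3.37 to 240.0 ± 1.97 TPM. The Golgi GDP-mannose transporter (PAS_chr3_0916) fell from 134 ± 6.70 to 81.1 ± 5.38 TPM.

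**Figure D5:**
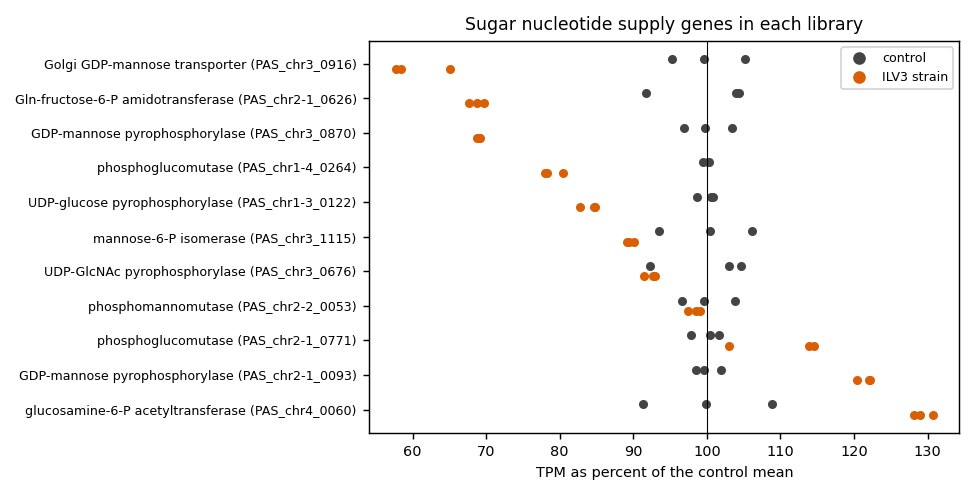
TPM as a percent of the control mean (horizontal axis) for 11 sugar nucleotide supply genes in each control library (grey) and each ILV3 library (orange). The ILV3 points lie left of all control points in the 6 genes that fell and right of them in the 2 that rose.

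Among 10 genes matched for cell wall integrity signalling, the kinase cascade that yeasts use to answer wall stress, 5 fell, 2 rose and 3 did not pass. The pattern also caught 3 genes of other kinases, and without these 4 of 7 fell and 1 rose. Of all tested genes 27.2% fell and 22.1% rose, the second share close to the 2 of 10 that rose here. The sensor-transducer of the pathway (PAS_chr3_0673), a surface protein that passes the signal inward, stood at 76.9, 70.0 and 78.9 TPM in the control and at 50.2, 49.6 and 45.3 TPM in the ILV3 strain (a log2 fold change of -0.63, SE 0.06, adjusted p = 5.17e-05). The kinase kinase of the cascade (PAS_chr1-4_0271) fell from 24.7 ± 1.42 to 21.3 ± 1.11 TPM (adjusted p = 0.0409). A pair of genes both described as activators of the Rho1p GTPase's own hydrolysis, which switches this GTPase off, carry consecutive tags and moved in opposite directions. PAS_chr2-1_0117 fell from 68.5 ± 3.63 to 41.2 ± 3.78 TPM, and PAS_chr2-1_0118 rose from 23.6 ± 1.19 to 28.7 ± 2.10 TPM.

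O-mannosylation and mannan, which dress the wall proteins with sugar, were matched by 25 genes outside the 46, of which 8 fell, 2 rose and 15 did not pass. The 32.0% that fell is near the 27.2% of all tested genes, and 8% rose, against 22.1%. The pattern also caught genes of N-linked glycosylation and the anchor gene PAS_chr3_0882, which is 1 of the 2 that rose. An alpha-1,2-mannosyltransferase of protein glycosylation (PAS_chr1-3_0138) fell from 49.8 ± 3.75 to 28.4 ± 1.70 TPM (a log2 fold change of -0.79, with adjusted p = 2.59e-05). Dolichol-phosphate mannosyltransferase (PAS_chr1-1_0459), which makes the lipid-linked mannose used for O-mannosylation and for the GPI anchor, fell from 229 ± 4.23 to 164 ± 9.31 TPM (a log2 fold change of -0.48, with adjusted p = 5.83e-05). Of 7 genes matched for dolichol and lipid precursors, 3 fell and 1 rose. These are 42.9% and 14.3%, against 27.2% and 22.1% of all tested genes. The 4 that are also in the mannosylation list are protein O-mannosyltransferases, matched because they take mannose from dolichyl phosphate. Of these, PAS_chr2-1_0212 and PAS_chr2-1_0256 fell, and PAS_chr1-1_0286 and PAS_chr4_0777 did not pass. Cis-prenyltransferase (PAS_chr4_0818), which builds the dolichol chain, fell from 62.6 ± 2.67 to 46.96 ± 1.77 TPM. Dolichol kinase (PAS_chr2-1_0498), which acts later in that route, rose from 51.4 ± 2.62 to 62.3 ± 2.13 TPM.

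Control replicate 2 stood apart for these genes. It was the lowest control library in 42 of the 46, or 91.3%, and in 66.3% of all tested genes. Without it, 28 of the 46 genes fell and 3 rose. The share of all tested genes that fell also grew, from 27.2% to 32.4%, and 21.1% rose. Among the ILV3 libraries, replicate 3 was the lowest in 32 of the 46, or 69.6%, and in 50.1% of all tested genes. The part of these libraries in the results was not tested beyond leaving each one out.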

How the data were processed

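Per the labels, RNA from 6 yeast cultures was made into stranded, ligation-based mRNA libraries. HISAT2, TopHat2 and DESeq2 are named in the submitters' processing notes. Versions, roles, genome build and annotation source were not given in the sources used here. Deposited values are named FPKM in the file headers, but sum to 1000000 in every library and were treated as TPM. The deposited log2 fold change and p-value of each gene were used only for the comparison of signs, and the files do not say if that p-value was adjusted. The reference gene table held none of the gene IDs (0 of 5030), so IDs and descriptions are the authors'.

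Values were taken as log2(TPM + 1), genes whose mean reached 1 TPM were kept (5025), and limma 3.58.1 in R 4.3.3 was fitted with a mean-variance trend, strain as the only term and Benjamini-Hochberg adjustment. The procedure was tested on simulated data in which every library was drawn independently. Neither pairing between libraries nor a shift of a whole library was simulated, so that test does not cover them. The design had been written for FPKM. Roles were assigned by hand from the descriptions. Each role's lowest adjusted p in each direction, its most abundant gene, all calls of at least 0.5 on the log2 scale and all synthase and transamidase subunits are given per library, and most other genes more briefly. The members and lists were chosen with earlier results of these data known. Same-numbered libraries of the strains deviated together (r across genes of 0.223, 0.126 and 0.209, each over 0.1), so they count as paired. The labels do not say what they share, so the block stayed an alternative. The main calls and adjusted p thus ignore this pairing.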

Additional observations from a re-analysis of the deposited data

How the results depend on the processing

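Over 15 other settings (pseudocounts, filters, scalings, empirical Bayes options, the replicate block and each library left out), none of the 29 called genes turned its direction. Of the 17 that did not pass, 7 did in some setting. Of 24 genes that fell, 19 kept the call in every setting, as did 3 of 5 that rose. The replicate block left 3 rising genes and 22 falling ones. Besides the 4 calls it ended, each named beside its gene, it changed no other call among the 46. With 1 library left out, 20 to 28 genes fell and 3 to 4 rose. Of all tested genes, 22.3% to 32.4% then fell and 18.7% to 21.1% rose. The median log2 fold change of the 46 genes lay between -0.24 and -0.18 in these fits. It was -0.19 with median-ratio scaling and -0.17 with quantile normalization, where the median of all genes was 0.00 and 0.02. Quantile normalization also turned the balance of all tested genes, to 29.8% higher and 25.4% lower, with 6 of the 46 genes higher and 23 lower. Median-ratio scaling gave 26.1% and 27.2%. Small changes of low genes are limited by 3 libraries a strain and by the unknown depth.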
